A study of Mus musculus with 8 samples.

Results

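Cytochrome P450 genes were read from 8 microarrays of mouse dorsal skin. They were chosen by symbol, as genes named Cyp followed by digits, letters and digits, whose probe set was annotated to that gene alone. Of 70 such genes on the array, 26 had a signal above the median of the array on at least 2 of the 8 arrays, among 12420 genes of all kinds that passed the same filter. These 26 genes are described here, each by the brightest of its probe sets on average, and the other 44 lay below the filter. The study asked how skin changes in an atopy-like dermatitis made with dinitrochlorobenzene (DNCB), a contact sensitizer, and how it changes when the compound HY209 is added.

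All groups were Balb/c mice, and the labels give neither age nor sex. The DNCB+HY209 group (n = 3) had DNCB on the dorsal skin for 15 days and a gel of 5% HY209 in PEG for the last 7 days. The DNCB group (n = 3) had the same course of DNCB and, per the series' design text, vehicle for the last 7 days. The sham group (n = 2) had neither DNCB nor HY209 according to its titles and source names, although its protocol fields repeat the DNCB and HY209 text of the treated groups. Nothing in the labels ties each array to an animal of its own, so the p-values below measure the spread between these samples, which may be technical.

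Cytochrome P450 enzymes are haem proteins of the endoplasmic reticulum or mitochondria that insert an oxygen atom into lipids, hormones and foreign chemicals. Microsomal members take their electrons from P450 oxidoreductase and cytochrome b5, and mitochondrial members take theirs from adrenodoxin. The family is known mostly from liver, but skin uses some of its members to make barrier lipids, to clear retinoic acid and to handle chemicals that reach the surface. Many family members are switched on by nuclear receptors or by the aryl hydrocarbon receptor.

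Values are the log2 signals that the authors deposited, and differences are on the same log2 scale. The arrays' medians lay between 4.07 and 4.22, so a gene near 4 is close to the middle of all probe sets, and a fold that rests on such a signal is approximate. Signals of different probe sets are not comparable as amounts of RNA, so levels are compared between arrays within a gene. A gene was called changed at an adjusted p under 0.05 in limma, with Benjamini-Hochberg adjustment over all 12420 genes. SE stands for the moderated standard error from limma, and intervals are 95% confidence intervals from that fit.

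Over all probe sets, arrays correlated with each other at 0.965 to 0.986 within groups and at 0.92 to 0.987 between groups. Of 9 keratinocyte markers, 8 were kept, and their mean level was 10.34 to 12.14 on every array. Of 12 hepatocyte markers, 3 were kept, and albumin (Alb) was among the 9 that were not. The Gapdh probe sets of the 3′ and 5′ ends, whose signal ratio is higher where RNA is more degraded, gave ratios of 2.31 to 3.24 on the DNCB+HY209 arrays, 2.79, 2.11 and 7.34 on DNCB arrays 1 to 3, and 4.46 and 2.81 on sham arrays 1 and 2. The mean log2 signal of 7 bacterial spike-in probe sets was 10.89, 9.97 and 9.87 on the DNCB+HY209 arrays, 10.71, 9.25 and 10.83 on the DNCB arrays, and 10.99 and 11.62 on the sham arrays. DNCB array 2 and DNCB+HY209 array 3 stood high for many genes of all kinds. Together they held the highest value for 14 of the 26 P450 genes and for 50.3% of all genes.

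Cyp2f2 and Cyp2e1 were the only P450 genes that passed the test in any comparison, and both were lower than in sham skin. Cyp2f2, the enzyme that activates naphthalene in the club cells of the mouse lung, fell in DNCB skin and in DNCB+HY209 skin. Cyp2e1, the ethanol-inducible P450 of liver, fell in DNCB+HY209 skin and missed the threshold in DNCB skin. No P450 gene was called higher in any comparison. No P450 gene was called in DNCB+HY209 skin against DNCB skin.

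Cyp2f2 had 4.27, 3.79 and 4.69 in DNCB+HY209 skin, 5.10, 4.38 and 3.81 in DNCB skin, and 6.81 and 6.82 in sham skin. Both sham arrays lay above all 6 arrays that had received DNCB, and 2 of those 6, DNCB+HY209 array 2 and DNCB array 3, lay below the median of their own array. Cyp2f2 averaged 4.43 ± 0.65 in DNCB skin (SD, n = 3) and 6.81 ± 0.013 in sham skin (SD, n = 2). The difference was -2.38 (SE 0.38, 95% interval -3.24 to -1.53, adjusted p = 0.0243), which corresponds to a signal 5.22-fold lower in DNCB skin. In DNCB+HY209 skin Cyp2f2 averaged 4.25 ± 0.45 (SD, n = 3), and its difference from sham skin was -2.56 (SE 0.38, interval -3.42 to -1.71, adjusted p = 0.033), or 5.91-fold lower. These samples are bulk skin, so fewer cells of a type and less RNA per cell cannot be told apart. The call in DNCB against sham skin was lost on leaving out sham array 1 (-2.39, adjusted p = 0.109), sham array 2 (-2.37, adjusted p = 0.133) or DNCB array 2 (-2.36, adjusted p = 0.0759). In DNCB+HY209 against sham skin it was lost on leaving out either sham array or DNCB+HY209 array 2 or 3, at differences of -2.78 to -2.34.

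Cyp2e1 had 3.95, 3.60 and 3.70 in DNCB+HY209 skin, 6.43, 4.28 and 3.67 in DNCB skin, and 8.23 and 7.71 in sham skin. The sham arrays were again the highest of the 8, and the 3 DNCB+HY209 arrays lay close together below the median of their own array. DNCB array 1 lay between the sham arrays and the rest, so that the DNCB group had the widest spread of any P450 gene in any group. Cyp2e1 averaged 3.75 ± 0.18 in DNCB+HY209 skin (SD, n = 3) and 7.97 ± 0.37 in sham skin (SD, n = 2), a difference of -4.22 (SE 0.66, interval -5.71 to -2.73, adjusted p = 0.043). This corresponds to a signal 18.6-fold lower in DNCB+HY209 skin, the largest difference of any of the 26 genes. In DNCB skin it averaged 4.79 ± 1.45 (SD, n = 3), with a difference from sham skin of -3.18 (SE 0.66, interval -4.67 to -1.68, adjusted p = 0.0517). Without DNCB array 1 that difference was -3.99 with an adjusted p of 0.00494. Over 21 alternatives the difference in DNCB against sham skin was called in 4, and its adjusted p was as high as 0.453. In DNCB+HY209 against sham skin the call was lost on leaving out either sham array, DNCB array 2 or DNCB+HY209 array 2 or 3, at differences of -4.48 to -3.96.

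The promoters of these genes are shown because they are the called members of the family. Sequences are from RefSeq on GRCm38.p6, on the plus strand, 5′ to 3′, from 250 bases before to 50 bases after the annotated start, which counts as base 1. Capitals mark matches to a TATA box (TATAAA) or a CCAAT box (CCAAT), on either strand. The Cyp2e1 window (chr7:140763569-140763868) holds a TATA box at -31 and CCAAT boxes at -210 and -68. The Cyp2f2 window (chr7:27119705-27120004) holds neither, nor any of the other motifs searched, and so has no capitals.
Cyp2e1: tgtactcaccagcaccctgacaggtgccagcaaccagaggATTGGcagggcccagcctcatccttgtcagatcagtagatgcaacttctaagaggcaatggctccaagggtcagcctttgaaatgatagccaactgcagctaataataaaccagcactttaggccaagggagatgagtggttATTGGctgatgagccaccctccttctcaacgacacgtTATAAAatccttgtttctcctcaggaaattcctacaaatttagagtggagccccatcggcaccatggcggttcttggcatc
Cyp2f2: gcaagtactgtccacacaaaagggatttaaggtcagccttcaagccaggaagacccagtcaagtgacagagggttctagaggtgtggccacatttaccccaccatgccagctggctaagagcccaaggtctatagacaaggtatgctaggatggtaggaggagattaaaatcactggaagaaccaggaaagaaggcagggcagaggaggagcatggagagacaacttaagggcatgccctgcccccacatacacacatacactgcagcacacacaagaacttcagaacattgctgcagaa
Of the 26 genes, 21 had a promoter in the table. TATAAA was in 6 of these 21 and in 13.6% of 32851 promoters of all genes, and CCAAT was in 9 of 21 and in 37.4%. The core of the aryl hydrocarbon receptor element (GCGTG) was in 8 of 21 and in 32.4% of all, the AP-1 motif (TGANTCA) in 4 and in 7.8%, and the C/EBP core (TTGCNNAA) in 3 and in 10.8%. All motifs were searched on both strands, and no matches of different motifs overlap in the windows printed here. A match describes letters and not a bound site.

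**Figure D1:**
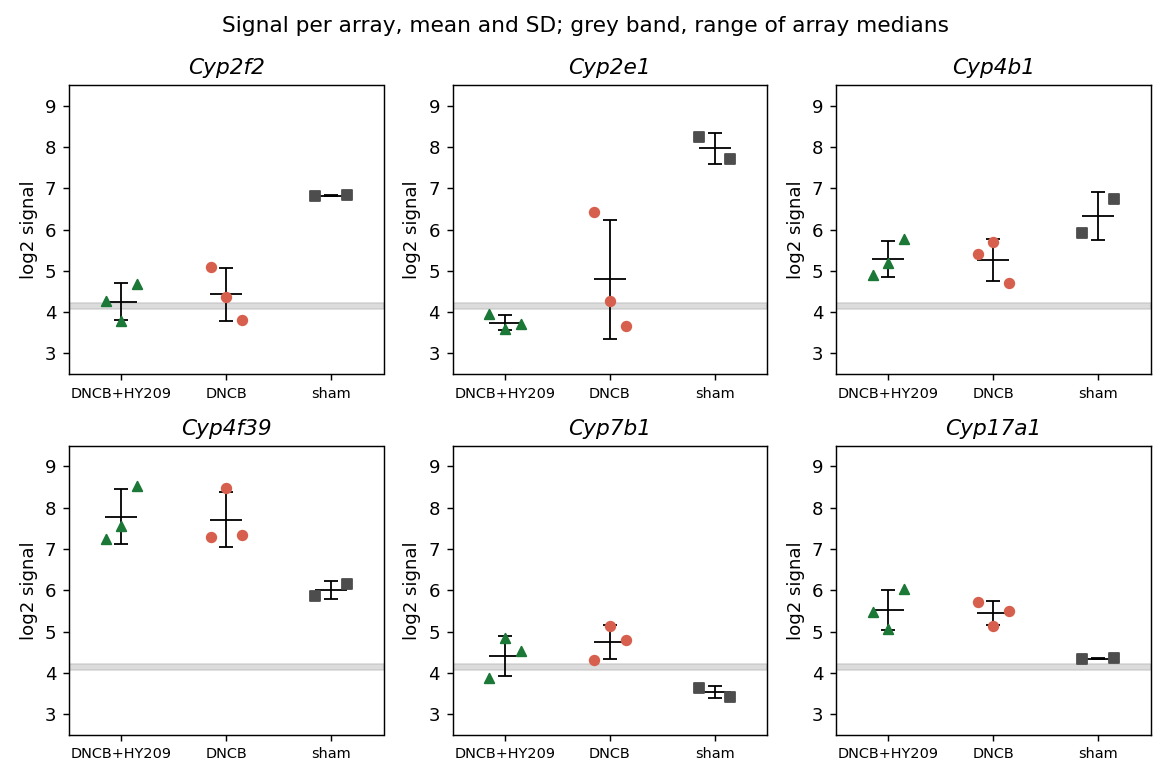
Log2 signal of Cyp2f2, Cyp2e1, Cyp4b1, Cyp4f39, Cyp7b1 and Cyp17a1, with a point for each array and the mean and SD of each group (DNCB+HY209, n = 3; DNCB, n = 3; sham, n = 2), and a grey band for the range of the array medians. The sham arrays are the highest for the first 3 genes and the lowest for the other 3, and DNCB array 1, at 6.43, lies apart from the other DNCB arrays for Cyp2e1.

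Fat cells also express Cyp2e1. Of 12 adipocyte markers 7 were kept, and limma called 0 of them in any comparison, with an adjusted p as low as 0.0593. Their mean log2 level was 7.57, 6.91 and 7.16 in DNCB+HY209 skin, 8.04, 7.67 and 6.69 in DNCB skin, and 8.72 and 8.19 in sham skin, the sham arrays being the highest. The defining marker Adipoq (adiponectin) had 4.87, 3.23 and 3.59 in DNCB+HY209 skin, 6.08, 5.22 and 3.43 in DNCB skin, and 8.13 and 6.76 in sham skin. Within the DNCB group Adipoq, Fabp4, Cidec and Lpl were highest on array 1 and lowest on array 3, as Cyp2e1 and Cyp2f2 were. Retn, Pnpla2 and Car3 had another order there. Within the DNCB+HY209 group Adipoq and Cyp2e1 were highest on array 1, but Cyp2f2 was highest on array 3. The difference of Adipoq was -2.53 (SE 0.77, adjusted p = 0.16) in DNCB against sham skin and -3.55 (SE 0.77, adjusted p = 0.0952) in DNCB+HY209 against sham skin. Retn (resistin) differed by -2.27 (adjusted p = 0.0593) and Car3 by 0.19 (adjusted p = 0.737) in DNCB+HY209 against sham skin. In the same comparison Fabp4 differed by -1.67, Cidec by -1.64 and Lpl by -0.21. Pnpla2, like Car3, had a positive difference, at 0.42 (adjusted p = 0.409), and its DNCB+HY209 arrays all lay above both sham arrays. Plin1, Cfd, Lep, Lipe and Aqp7 had no kept probe set. With the mean level of the 7 markers as a covariate, the difference of Cyp2e1 was -1.72 (adjusted p = 0.453) in DNCB against sham skin and -2.39 (adjusted p = 0.668) in DNCB+HY209 against sham skin. That of Cyp2f2 was -1.66 in both (adjusted p = 0.283 in DNCB and 0.668 in DNCB+HY209 skin). In that fit 5 and 0 genes of all kinds were called in these comparisons. The mean level of the markers was highest on both sham arrays, so this covariate cannot be fully separated from the contrast with sham skin. How much of the result fat cells carry was not tested. Hair follicle markers, of which 20 of 21 were kept, had a mean level of 8.39, 6.06 and 6.20 in DNCB+HY209 skin, 5.23, 5.50 and 7.39 in DNCB skin, and 9.39 and 6.55 in sham skin, where the groups overlapped. Sebaceous gland markers, of which 11 of 16 were kept, lay between 6.04 and 6.84 on all arrays.

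Some markers of other cell types were called as well. Of 12 endothelial markers 10 were kept and 4 were called higher in DNCB against sham skin, against 1.37% of all genes: Cdh5, Emcn, Plvap and Cldn5. Their mean level over the 10 was 4.93, 5.44 and 5.44 in DNCB+HY209 skin, 6.11, 6.20 and 5.42 in DNCB skin, and 4.60 and 4.45 in sham skin. From the neutrophil list S100a8 and S100a9, 2 of 8 kept, rose in both comparisons with sham skin. They rose by 5.73 and 6.01 in DNCB skin and by 4.67 and 4.84 in DNCB+HY209 skin. The median difference of the 8 was 0.40 in DNCB skin and 0.02 in DNCB+HY209 skin, against 0.15 and 0.20 for all genes. Of all genes, 0.266% were called higher in DNCB+HY209 against sham skin. In DNCB skin 1 marker rose in each of the macrophage (Ms4a7, 12 kept), fibroblast (Pdgfrb, 11 kept) and skeletal muscle (Myh2, 20 kept) lists. The basal keratinocyte keratin Krt15, 1 of 8 kept, fell by 2.82 in DNCB skin, where 0.459% of all genes were called lower. The median difference of the 8 keratinocyte markers was 0.71 in DNCB skin, against 0.15 for all genes. The other basal keratins Krt5 and Krt14 differed by 0.18 and 1.24, and Krt1, Krt10 and Krtdap by 1.92, 1.26 and 1.52. Trp63 differed by 0.01 and Sbsn by -0.26, and none of these was called. Myh2 also rose in DNCB+HY209 skin, by 4.66. The hair follicle, sebaceous, mast cell, T cell and hepatocyte lists had 0 called by limma in any comparison. The part of these cell types in the P450 results was not tested.

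**Figure D2:**
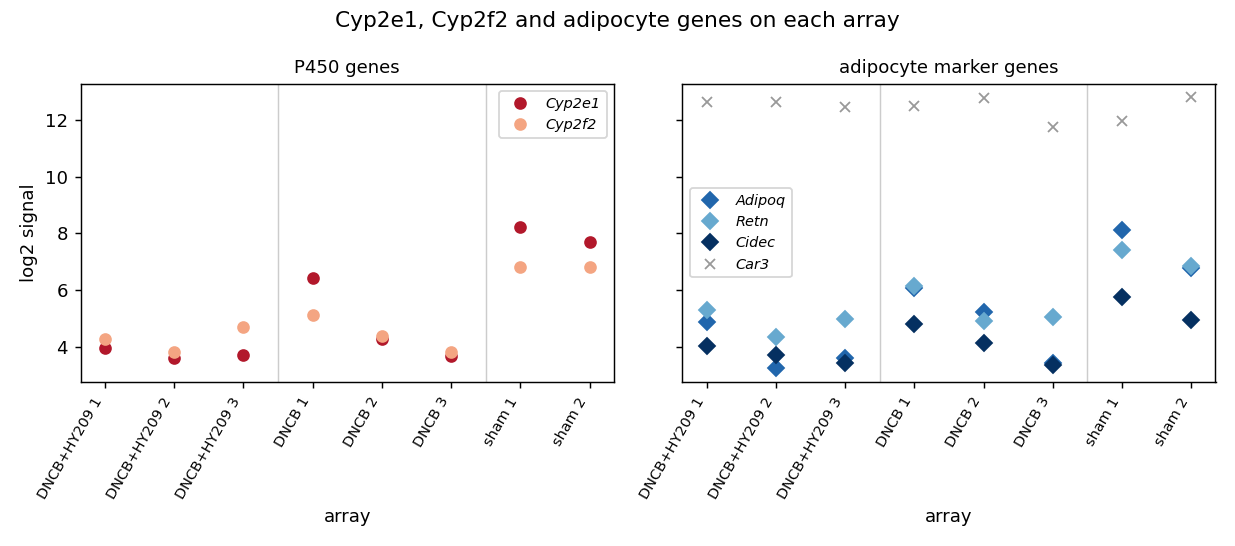
Log2 signal of Cyp2e1 and Cyp2f2 (left) and of the adipocyte markers Adipoq, Retn, Cidec and Car3 (right) on each of the 8 arrays, ordered as DNCB+HY209, DNCB and sham. Adipoq and Retn are highest on both sham arrays, as Cyp2e1 and Cyp2f2 are, and Car3 lies between 11.78 and 12.82 on all arrays.

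In DNCB skin against sham skin, 1 of the 26 P450 genes was called lower, against 0.459% of all genes, and 0 were called higher, against 1.37% of all genes. Counting genes whose arrays did not overlap between the groups, 7 P450 genes were higher in DNCB skin, against 23.3% of all genes, and 5 were lower, against 11.2% of all genes. The P450 genes were split evenly about 0, with 13 differences above it and 13 below. Their median difference was -0.02, against 0.15 for all genes. The range ran from -3.18 for Cyp2e1 to 1.71 for Cyp4f39. The 10 genes without overlap other than Cyp2f2 and Cyp2e1 are given by their roles.

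Among P450s of fatty acids, Cyp4f39 had the highest positive difference from sham skin in both comparisons. In mice it is the epidermal hydroxylase of ultra-long fatty acids for acylceramides, lipids of the skin barrier, and its human counterpart is CYP4F22. It had 7.24, 7.57 and 8.52 in DNCB+HY209 skin, 7.30, 8.48 and 7.35 in DNCB skin, and 5.85 and 6.15 in sham skin. All 6 arrays with DNCB lay above both sham arrays. The difference from sham skin was 1.71 (SE 0.45, interval 0.68 to 2.74, adjusted p = 0.119) in DNCB skin and 1.78 (SE 0.45, interval 0.75 to 2.80, adjusted p = 0.131) in DNCB+HY209 skin, neither past the threshold. With the spike-in signal as a covariate these differences were 0.99 and 1.04. The spike-in signal was highest on both sham arrays, so this covariate, here and below, cannot be fully separated from the contrast with sham skin.

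The promoter of Cyp4f39 (chr17:32452473-32452772, plus strand, GRCm38.p6) is printed as well, although the gene was not called. Its window holds the core of the aryl hydrocarbon receptor element, on either strand, in capitals, at -199 and -78. This core is not particular to Cyp4f39, being in 8 of the 21 promoters, among them those of Cyp1a1, Cyp1b1, Cyp20a1 and Cyp2b10.
Cyp4f39: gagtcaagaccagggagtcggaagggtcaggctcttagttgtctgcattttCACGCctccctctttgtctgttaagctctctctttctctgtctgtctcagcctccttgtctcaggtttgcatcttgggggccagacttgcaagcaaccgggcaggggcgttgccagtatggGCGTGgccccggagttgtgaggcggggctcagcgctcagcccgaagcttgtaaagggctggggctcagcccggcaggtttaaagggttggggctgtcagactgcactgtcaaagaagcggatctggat
Neighbours of the same subfamily had smaller differences. Cyp4f16, separated from Cyp4f39 by 1 protein-coding gene in the RefSeq annotation of GRCm38.p6, differed from sham skin by 0.32 in DNCB skin and 0.24 in DNCB+HY209 skin. A probe set annotated to both Cyp4f37 and Cyp4f16, not used in the comparisons, gave 0.84 and 1.04, on signals mostly below the array medians. Cyp4f13, with 8 genes between it and Cyp4f16, differed by -0.24 in DNCB skin and -0.28 in DNCB+HY209 skin. The differences between these genes were not tested.

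Cyp4b1, which hydroxylates fatty acids and activates some foreign chemicals, had 4.91, 5.19 and 5.78 in DNCB+HY209 skin, 5.41, 5.69 and 4.70 in DNCB skin, and 5.92 and 6.74 in sham skin. Both sham arrays were the highest, with sham array 1 only just above DNCB+HY209 array 3. The difference from sham skin was -1.06 (SE 0.38, adjusted p = 0.224) in DNCB skin and -1.04 (SE 0.38, adjusted p = 0.212) in DNCB+HY209 skin. Cyp2j6, of a subfamily that makes epoxides from arachidonic acid, spread from 3.90 to 5.71 within the DNCB group and differed from sham skin by 0.01 in DNCB skin. Cyp4v3 had 3.86, 4.16 and 4.27 in DNCB+HY209 skin, 4.38, 4.58 and 4.23 in DNCB skin, and 4.53 and 4.38 in sham skin. Its DNCB+HY209 arrays lay below both sham arrays, while its DNCB arrays overlapped them, and the differences from sham skin were -0.36 (adjusted p = 0.335) in DNCB+HY209 skin and -0.06 (adjusted p = 0.878) in DNCB skin.

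Of the sterol enzymes, Cyp7b1, which hydroxylates oxysterols, had 3.88, 4.84 and 4.52 in DNCB+HY209 skin, 4.30, 5.14 and 4.81 in DNCB skin, and 3.64 and 3.42 in sham skin. Both sham arrays were the lowest and lay below the median of their own array. The difference from sham skin was 1.22 (SE 0.32, interval 0.48 to 1.95, adjusted p = 0.12) in DNCB skin and 0.88 (SE 0.32, adjusted p = 0.213) in DNCB+HY209 skin. With the spike-in signal as a covariate these differences were 0.72 and 0.38. A second kept probe set of Cyp7b1 gave 2.03 in DNCB skin and 1.12 in DNCB+HY209 skin, each against sham skin. The probe set with the higher mean is of a type that can also bind related transcripts. Cyp27a1, a mitochondrial sterol hydroxylase, was the steadiest of the 26 genes across arrays, with 5.69, 5.35 and 5.62 in DNCB+HY209 skin, 5.62, 5.41 and 5.56 in DNCB skin, and 5.39 and 5.80 in sham skin. The groups overlapped throughout.

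Of the steroid hormone enzymes, Cyp17a1, which makes androgen precursors, had 5.46, 5.07 and 6.04 in DNCB+HY209 skin, 5.71, 5.14 and 5.49 in DNCB skin, and 4.33 and 4.36 in sham skin. All 6 arrays with DNCB were higher than the sham arrays. The difference from sham skin was 1.10 (SE 0.29, interval 0.43 to 1.77, adjusted p = 0.121) in DNCB skin and 1.18 (SE 0.29, interval 0.51 to 1.84, adjusted p = 0.127) in DNCB+HY209 skin. Cyp21a1, which makes precursors of corticosteroids, had 5.76, 5.76 and 5.90 in DNCB+HY209 skin, 6.06, 5.77 and 5.88 in DNCB skin, and 6.28 and 6.90 in sham skin. Both sham arrays were the highest, and the differences from sham skin were -0.68 (adjusted p = 0.203) in DNCB skin and -0.78 (adjusted p = 0.165) in DNCB+HY209 skin. Cyp21a1 has a closely similar pseudogene in the mouse genome, so its signal is uncertain, and its second probe set lay below the filter.

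**Figure D3:**
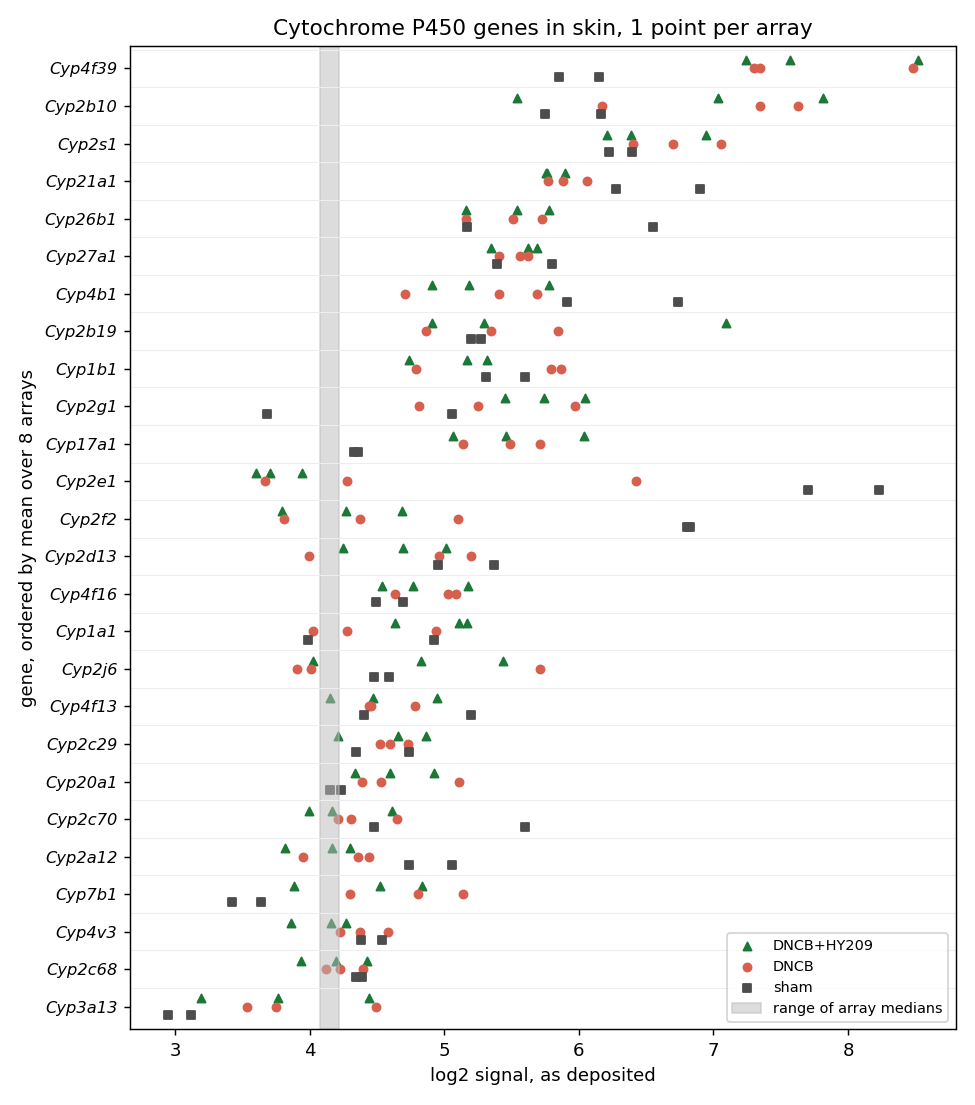
Log2 signal of the 26 P450 genes (rows, ordered by their mean), with a point for each array coloured by group (DNCB+HY209, n = 3; DNCB, n = 3; sham, n = 2) and a grey band for the range of the array medians. The sham arrays stand above the others for Cyp2e1 and Cyp2f2 and below them for Cyp4f39 and Cyp17a1, and Cyp27a1 varies least.

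No retinoid enzyme was called. Cyp26b1, a retinoic acid hydroxylase, had 5.16, 5.54 and 5.78 in DNCB+HY209 skin, 5.51, 5.73 and 5.16 in DNCB skin, and 5.17 and 6.55 in sham skin. The sham arrays held both its highest value and a value near its lowest, and its difference in DNCB against sham skin was -0.39 (SE 0.39, adjusted p = 0.59). Cyp2s1, a skin-expressed P450 that metabolizes retinoic acid, had 6.21, 6.39 and 6.94 in DNCB+HY209 skin, 6.70, 7.05 and 6.40 in DNCB skin, and 6.39 and 6.23 in sham skin. The DNCB arrays lay above the sham arrays by a narrow margin, with a difference of 0.41 (SE 0.29, adjusted p = 0.459), and the DNCB+HY209 arrays overlapped the sham arrays. With the spike-in covariate the difference from sham skin was 0.01 in DNCB skin and turned negative in DNCB+HY209 skin, to -0.20 against 0.21 without it.

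Of families Cyp1 to Cyp3, which handle mostly foreign chemicals, Cyp1a1 and Cyp1b1, the classical targets of the aryl hydrocarbon receptor, showed no difference past the threshold. Cyp1a1 had 5.11, 4.64 and 5.17 in DNCB+HY209 skin, 4.28, 4.02 and 4.94 in DNCB skin, and 3.99 and 4.92 in sham skin. The groups overlapped, and the difference in DNCB against sham skin was -0.04 (SE 0.35, interval -0.84 to 0.75, adjusted p = 0.955). Cyp1b1 had 5.32, 4.74 and 5.17 in DNCB+HY209 skin, 5.80, 5.87 and 4.79 in DNCB skin, and 5.31 and 5.60 in sham skin, also with overlap. Its difference in DNCB against sham skin was 0.03 (SE 0.34, interval -0.74 to 0.80, adjusted p = 0.969). The intervals of both still hold changes of more than 0.7 in either direction.

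Cyp2b10, a target of the constitutive androstane receptor in mouse liver, had 5.54, 7.03 and 7.81 in DNCB+HY209 skin, 7.35, 7.62 and 6.17 in DNCB skin, and 6.16 and 5.75 in sham skin. DNCB array 3 exceeded sham array 1 by less than 0.01, and DNCB+HY209 array 1 was the lowest of all. The difference in DNCB against sham skin was 1.09 (SE 0.63, interval -0.34 to 2.52, adjusted p = 0.394). Both other kept probe sets of Cyp2b10, of the type that can bind related transcripts, gave 1.75. With the spike-in signal as a covariate the difference of the main probe set was 0.07 in DNCB skin, and in DNCB+HY209 skin it changed sign, to -0.21 against 0.84 without the covariate. Cyp2b19, an arachidonic acid epoxygenase of mouse keratinocytes, had 5.30, 4.91 and 7.09 in DNCB+HY209 skin, 5.35, 5.85 and 4.86 in DNCB skin, and 5.27 and 5.20 in sham skin. Its high value came from DNCB+HY209 array 3 alone, and the groups overlapped.

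Cyp2a12, a hydroxylase of steroids and bile acids in mouse liver, had 4.30, 4.16 and 3.82 in DNCB+HY209 skin, 4.36, 3.95 and 4.44 in DNCB skin, and 4.74 and 5.06 in sham skin. Both sham arrays were the highest, at differences of -0.65 (SE 0.23, adjusted p = 0.227) in DNCB skin and -0.81 (SE 0.23, adjusted p = 0.16) in DNCB+HY209 skin. Cyp2g1, best known from olfactory mucosa, had 5.74, 5.45 and 6.04 in DNCB+HY209 skin, 5.25, 4.81 and 5.97 in DNCB skin, and 3.69 and 5.06 in sham skin. Its DNCB+HY209 arrays were all above the sham arrays (difference 1.37, SE 0.44, adjusted p = 0.189), while the DNCB arrays overlapped them (difference 0.97, adjusted p = 0.308). Cyp3a13 had 3.19, 3.76 and 4.44 in DNCB+HY209 skin, 3.75, 4.49 and 3.54 in DNCB skin, and 2.94 and 3.12 in sham skin. It only just passed the filter, being above the median on DNCB array 2 and DNCB+HY209 array 3, so its differences from sham skin of 0.90 in DNCB skin and 0.77 in DNCB+HY209 skin rest on signals below the middle of the arrays. The spike-in covariate brought them to 0.26 and 0.12. Cyp2c38, with 1 array above the median, was the nearest gene outside the filter and had a mean of 3.79.

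Cyp20a1, an orphan P450 with no settled substrate, had 4.34, 4.60 and 4.93 in DNCB+HY209 skin, 4.53, 5.11 and 4.39 in DNCB skin, and 4.23 and 4.15 in sham skin. All 6 arrays with DNCB lay above both sham arrays, and the differences were 0.48 (SE 0.26, adjusted p = 0.369) in DNCB skin and 0.43 (SE 0.26, adjusted p = 0.371) in DNCB+HY209 skin. With the spike-in covariate they were 0.05 in DNCB skin and -0.01 in DNCB+HY209 skin, where the sign turned. The remaining members of the family, Cyp2c29, Cyp2c68, Cyp2c70 and Cyp2d13, overlapped between groups in both comparisons with sham skin. Cyp2c70, which makes muricholic acids in mouse liver, was high on sham array 2 alone, at 5.60, against 4.48 on sham array 1. In DNCB against sham skin these 4 genes differed by -0.65 (Cyp2c70), -0.45 (Cyp2d13), -0.11 (Cyp2c68) and 0.08 (Cyp2c29).

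Against DNCB skin, DNCB+HY209 skin showed no called P450 gene by limma, against 0% of all genes. At an unadjusted p under 0.05 the count was also 0 of 26, against 1.3% of all genes, and 0 had arrays without overlap, against 4.99% of all genes. The differences ran from -1.04 for Cyp2e1 to 0.56 for Cyp1a1, with 9 above 0 and 17 below. Their median was -0.07, against 0.03 for all genes, and every adjusted p was 0.9998 or above.

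The intervals show what 3 arrays against 3 can bound. For Cyp2e1 the difference was -1.04 (SE 0.59, interval -2.38 to 0.29), and DNCB array 1 held the highest of the 6 values. For Cyp1a1 it was 0.56 (SE 0.32, interval -0.15 to 1.27), with DNCB array 3 inside the range of the DNCB+HY209 arrays. Cyp1b1 (-0.41), Cyp2b19 (0.41), Cyp2g1 (0.40), Cyp7b1 (-0.34) and Cyp4v3 (-0.30) followed in size. The intervals of Cyp2f2 (-0.94 to 0.58), Cyp4f39 (-0.85 to 0.99), Cyp17a1 (-0.52 to 0.67) and Cyp2b10 (-1.53 to 1.03) all held 0. Intervals of this width hold changes in either direction, so a missed threshold does not show that the groups were alike.

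**Figure D4:**
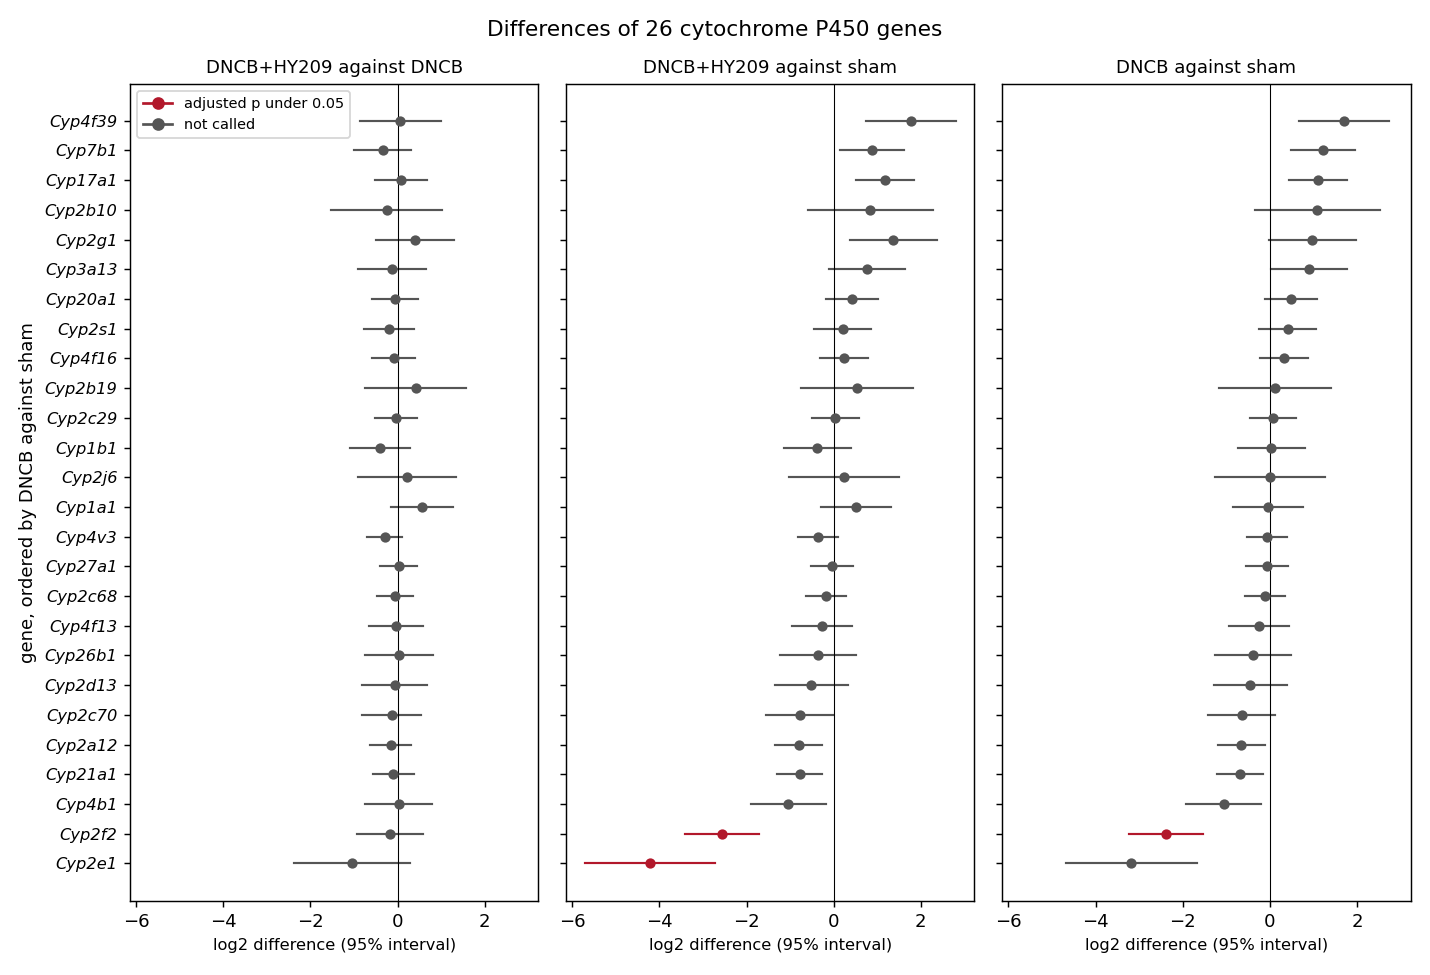
Log2 differences of the 26 P450 genes with 95% intervals from limma, in a panel each for DNCB+HY209 against DNCB, DNCB+HY209 against sham and DNCB against sham, ordered by the last. Red points have an adjusted p under 0.05, which holds for Cyp2e1 and Cyp2f2 in DNCB+HY209 against sham and for Cyp2f2 in DNCB against sham.

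In DNCB+HY209 skin against sham skin, 2 of the 26 P450 genes were called lower, Cyp2e1 and Cyp2f2, against 0.137% of all genes, and 0 were called higher, against 0.266%. These shares come from 50 called genes, a count that was 287 without DNCB+HY209 array 1 and 9 to 32 without either sham array, DNCB array 1 or 3, or DNCB+HY209 array 2 or 3. Arrays did not overlap for 6 P450 genes that were higher, against 29.1% of all genes, and for 6 that were lower, against 12.2%. The higher ones were Cyp17a1, Cyp4f39, Cyp2g1, Cyp7b1, Cyp3a13 and Cyp20a1, and the lower ones were Cyp2f2, Cyp2e1, Cyp2a12, Cyp21a1, Cyp4b1 and Cyp4v3. The median difference was -0.00054, against 0.20 for all genes. Both comparisons with sham skin share the same 2 sham arrays, so that their values are given side by side and not as separate evidence.

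By role, the called genes were all among the members of families Cyp1 to Cyp3 not placed in another role, of which 13 of 35 with a probe set were kept. This group holds mostly P450s of foreign chemicals, and also Cyp2b19, Cyp2a12 and Cyp2c70 with the lipid, steroid and bile acid substrates named above. None was called among 6 of 17 for fatty acids and eicosanoids, 2 of 3 for retinoids, 2 of 5 for steroid hormones, 2 of 6 for sterols and bile acids, and the orphan Cyp20a1. The vitamin D enzymes Cyp24a1, Cyp27b1 and Cyp2r1 were all below the filter. So were Cyp26a1, the other retinoic acid hydroxylase on the array, Cyp7a1 and Cyp8b1 of bile acid synthesis, Cyp11a1, which starts steroid synthesis, and Cyp1a2. Mean signals of the 44 genes below the filter ran from 2.12 for Cyp3a16 to 3.79 for Cyp2c38, and these genes were left out of the fit. In a fit without a filter, on 18193 genes of which 70 were P450 genes, none of the 44 was called in any comparison.

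Chromosome 7 carries 7 of the 26 genes. In the RefSeq annotation of GRCm38.p6, Cyp2a12 and Cyp2f2 have 0 protein-coding genes between them, as do Cyp2b19 and Cyp2g1, and Cyp2s1 and Cyp2b10. In DNCB against sham skin, Cyp2a12 and Cyp2f2 differed by -0.65 and -2.38, Cyp2b19 and Cyp2g1 by 0.12 and 0.97, and Cyp2s1 and Cyp2b10 by 0.41 and 1.09. Cyp2e1 lies on the same chromosome with 1386 protein-coding genes between it and Cyp2f2.

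Partner genes of the P450s were counted from 4 lists. Of 20 genes for electron supply and haem, 16 were kept and 0 were called by limma in any comparison. In DNCB against sham skin, 1.37% of all genes were called higher and 0.459% lower, and counts in these short lists are to be read against those shares. Cyb5a, the cytochrome b5 that passes electrons to microsomal P450s, differed by -0.09 (adjusted p = 0.876) in DNCB against sham skin. Those furthest from 0 by their moderated t were Urod (0.78, adjusted p = 0.196) and Alas1 (1.05, adjusted p = 0.227) of haem synthesis and Hmox2, a haem oxygenase (0.52, adjusted p = 0.314). These differed by 0.92, 1.09 and 0.51, in the same order, in DNCB+HY209 against sham skin. Por, the oxidoreductase, was not kept.

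Of 26 regulators, 16 were kept and 1 was called. Ppard, the nuclear receptor PPAR-delta, averaged 6.87 ± 0.57 in DNCB skin (SD, n = 3) and 4.64 ± 0.11 in sham skin (SD, n = 2), a rise of 2.23 (SE 0.42, adjusted p = 0.0409). Its difference was 2.01 (adjusted p = 0.0897) in DNCB+HY209 against sham skin. Ahr, the aryl hydrocarbon receptor, differed by 0.13 (adjusted p = 0.872) in DNCB against sham skin, and its target Tiparp by 1.01 (adjusted p = 0.364). The receptors for foreign chemicals Nr1i2 and Nr1i3 were not kept.

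Of 23 retinoid handling genes, 15 were kept and 1 was called. Crabp1, a cytoplasmic carrier of retinoic acid, averaged 7.61 ± 0.64 in DNCB skin (SD, n = 3) and 5.50 ± 0.24 in sham skin (SD, n = 2), a rise of 2.11 (SE 0.35, adjusted p = 0.0295), and in DNCB+HY209 against sham skin it differed by 1.60 (adjusted p = 0.101). Of 26 epoxide hydrolases and conjugating or oxidizing partners, 14 were kept and 2 were called higher in DNCB against sham skin, where 1.37% of all genes were. Aox4, an aldehyde oxidase, rose by 2.96 (SE 0.54, adjusted p = 0.0365), and Xdh, the xanthine oxidoreductase, rose by 1.66 (SE 0.32, adjusted p = 0.0439). The 4 calls of Ppard, Crabp1, Aox4 and Xdh were each lost on leaving out either sham array or DNCB array 1, among others, and held under 11, 12, 12 and 9 of 21 alternatives in this order. Ephx1, the microsomal epoxide hydrolase that acts on P450 products, differed by -1.34 (SE 0.32, adjusted p = 0.086). None of the 4 lists had a called gene in DNCB+HY209 skin against DNCB skin or against sham skin. Against sham skin, the lowest adjusted p was that of Aox4 (3.08, adjusted p = 0.0557), followed in the other lists by Ppard and by Lrat, which esterifies retinol (1.11, adjusted p = 0.0971). Against DNCB skin, the genes furthest from 0 by their moderated t were Blvrb (-0.30), Vdr (0.29), Crabp1 (-0.51) and Fmo1 (-0.36), 1 from each list. The median differences in DNCB against sham skin were 0.20, 0.12, 0.35 and 0.17 for the lists in this order, against 0.15 for all genes.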

How the data were processed

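RNA from frozen dorsal skin was amplified from the 3′ end and hybridized to Affymetrix arrays, 1 per sample, per the labels' protocols. The authors deposited a log2 signal for each probe set, and their range shows the log2 scale. Affymetrix Expression Console and MAS5 are the tools in the submitters' processing notes. How arrays were scaled to each other is not stated there. The labels name the 430A 2.0 array, whereas the table holds 45101 probe sets, and its annotation belongs to the larger array of that series. Detection calls were not used here.

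Of the probe sets, 34945 carried 1 gene symbol, 932 carried several, 9160 were not listed in the annotation and 64 were controls, which were left out. A probe set was kept if 2 or more of the 8 arrays had it above their own median, which left 24675 probe sets and 12420 genes. Of the kept genes, 99.5% matched RefSeq by Entrez identifier, and 0 P450 symbols differed. DNCB+HY209, DNCB and sham were compared in a single fit of 8 arrays with limma 3.58.1 (lmFit, eBayes with an intensity trend) in R 4.3.3, two-sided. The number of arrays limits the precision. The fit was tested on simulated data, and figures were drawn in Python 3.11.15.

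Values on each array are given for P450 genes that were called, for up to 10 genes in a comparison whose arrays did not overlap, for the 6 brightest, and for a chosen set of 10. Those of Cyp4v3 were added after they were seen. From the partner lists, called genes are named or else up to 3 with the largest moderated t, and Cyb5a, Ahr, Tiparp and Ephx1 were added. The P450 genes, the rule and the lists were chosen with earlier results of these data known. Alternatives were another normalization, filter, probe set rule, prior, choice of arrays and covariates.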

Additional observations from a re-analysis of the deposited data

Results flagged for a closer look

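A probe set annotated to both Cyp4f37 and Cyp4f16, which the comparisons do not use because it cannot be given to a single gene, differed by 0.84 on the log2 scale between DNCB and sham skin. It had 3.38, 3.69 and 4.34 in DNCB+HY209 skin, 3.39, 4.18 and 3.22 in DNCB skin, and 2.59 and 2.94 in sham skin, so that both sham arrays were the lowest. It was picked out because its signal exceeded that of the control arrays, so the direction of the difference follows from the choice. Its signal lay above the median of the array only on DNCB array 2 and DNCB+HY209 array 3, which stood high for many genes. The difference thus rests on signals mostly below the middle of the arrays, and it was not tested.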

How the results depend on the processing

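The count of P450 genes called in DNCB against sham skin (1) became 2 with quantile normalization, 2 with the Gapdh ratio as a covariate, and 0 with a replicate block, the spike-in covariate, the adipocyte covariate, or without DNCB array 2 and sham array 2. Leaving out single arrays gave 0 to 2. In DNCB+HY209 against sham skin the count (2) became 1 when all probe sets of a gene were averaged and 0 with the replicate block, the spike-in covariate, the adipocyte covariate, or without DNCB array 2 and sham array 2. Leaving out single arrays gave 0 to 2. The covariates and the pair of arrays were chosen after seeing the data, and the cause of these changes was not tested. Fits with fewer arrays or an added block or covariate have less residual freedom, and counts both rose and fell among them. In DNCB+HY209 against DNCB skin the count was 0 under all alternatives. Cyp2f2 stayed negative under all 21 alternatives in both comparisons with sham (-2.72 to -1.66 in DNCB and -2.78 to -1.66 in DNCB+HY209 skin) and was called in 14 and 13 of them. Cyp2e1 also stayed negative in all 21, at -3.99 to -1.72 in DNCB skin (called in 4) and -4.48 to -2.39 in DNCB+HY209 skin (called in 11). Over all genes, 227 were called in DNCB against sham skin, against 452 with the Gapdh covariate, 352 without DNCB+HY209 array 1, 15 to 66 without either sham array, DNCB array 1 or 2 or DNCB+HY209 array 2, 35 with the replicate block, 16 with the spike-in covariate and 5 with the adipocyte covariate. Arrays with the same replicate number did not deviate together (r from -0.603 to 0.276 over 7 pairs), so the numbers were not taken as pairs. With the block, Cyp2f2 differed from sham by -2.34 (adjusted p = 0.0861) in DNCB skin and -2.52 (adjusted p = 0.121) in DNCB+HY209 skin.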
